A study of Mus musculus with 5 samples.

Results

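Potassium channel genes were followed in 5 libraries of mouse fat progenitors. The members are the protein-coding genes of the count table whose symbol begins with Kcn, which gave 94 of the 54532 genes. The symbols cover the pore-forming subunits of the 2-pore family (14 genes), the inward rectifiers (15), the voltage-gated channels (40) and the calcium- or sodium-activated channels (8), together with 16 auxiliary subunits and the channel regulator Kcnrg. Families were assigned by symbol, so Kcnu1 is counted with the calcium- or sodium-activated channels by its family and not by how it opens.

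The cells were stromal vascular cells from subcutaneous fat (SAT) and visceral fat (VAT) of 30 wild-type mice on chow diet, aged 12 to 14 weeks. Endothelial and immune cells were removed by CD31 and CD45, and sorting then used CD26 (the peptidase encoded by Dpp4) and CD142 (tissue factor, encoded by F3). By title, VAT has 3 libraries, namely replicates 1 and 2 of CD26-CD142+ and a single CD26+CD142+ library. SAT has 2 libraries, titled CD26+CD142- (called SAT library 1 here) and CD26-CD142+ (SAT library 2). The labels do not say whether these came from separate pools of mice, so the p-values measure only the spread between these libraries, which may be technical. Where a fit pools gates, that spread also holds the differences between gates. In such bulk libraries, fewer cells of a type and less RNA per cell cannot be told apart.

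The labels of the SAT libraries conflict. The library name of SAT library 1 carries CD142, against its title, and that of SAT library 2 carries CD26, also against its title. The depth-scaled level, in CPM, of Dpp4 was 6.58 in SAT library 1 and 1007 in SAT library 2, and that of F3 was 618 and 5.32. Both genes went against the titles of these libraries, so each tested comparison that uses the SAT gates is given by title and by library name. No library was moved to another group. In VAT, Dpp4 stood at 5.13 and 6.58 CPM in the CD26-CD142+ libraries and at 417 CPM in the CD26+CD142+ library, and F3 at 379, 241 and 99.1 CPM.

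Total counts lay between 21706345 and 25357403 per library. All 6 pan-mesenchymal markers were above 1 CPM in each library, summing to 16432 to 33564 CPM. Markers of other cells differed between libraries. The 6 epithelial markers summed to 65.1 CPM in SAT library 1 and to at most 0.536 CPM elsewhere, with Krt14 at 0 in SAT library 1. The 9 mesothelial markers summed to 173 CPM in SAT library 1, of which 4 keratins gave 172 CPM with Msln and Wt1 at 0, and to 4.65 CPM in SAT library 2, with 3 markers at 0. They summed to 116 and 170 CPM in the VAT CD26-CD142+ libraries, of which Wt1 gave 113 and 154 CPM, and to 336 CPM in the VAT CD26+CD142+ library, where all 9 were above 1 CPM. The 10 mural markers summed to 43.3 and 40.3 CPM in SAT and to 208, 219 and 120 CPM in VAT, but without Des the sums were 40.1 and 25.9 CPM in SAT and 70.5, 99.3 and 23.3 CPM in VAT, so the depots overlapped. The 8 endothelial markers summed to 36.9 CPM in SAT library 1 and 320 CPM in SAT library 2, of which Tek gave 19.9 and 290 CPM, and to 76.4, 75.9 and 303 CPM in VAT. The 4 neuronal markers summed to 35.2 CPM in SAT library 1 and to 7.35 to 16.6 CPM elsewhere, with Elavl4 at 0 in every library. Rbfox3 gave 29.8 CPM of the sum in SAT library 1. The 6 mature adipocyte markers summed to 75.9 CPM in SAT library 1 and 11.4 CPM in SAT library 2. In VAT they summed to 13.9 and 25.3 CPM in the CD26-CD142+ libraries and to 2.10 CPM in the CD26+CD142+ library. Schwann markers (7) summed to 50.2 and 57.6 CPM in SAT and to 17.9, 17.5 and 13.5 CPM in VAT. Of these sums, S100b gave 25.9 CPM in SAT library 1 and Mbp 51.2 CPM in SAT library 2. Macrophage markers (8) summed to 56.9 CPM in SAT library 1 and to 25.1 to 38.7 CPM elsewhere. The name of each library ends in 1 or 2, and mitochondrially encoded genes took 2.83% and 4.33% of counts in the libraries ending in 1 against 0.554% to 0.633% in those ending in 2. Each depot and gate difference below, in SAT and in VAT, sits beside these differences, and their part in it was not tested.

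Potassium channels let potassium leave the cell and so set its membrane potential, its volume and the driving force for calcium entry. 2-pore channels carry a background leak, inward rectifiers hold the resting potential, voltage-gated channels open on depolarisation, and calcium- or sodium-activated channels couple potassium flow to other ions. Cells that do not fire action potentials, such as stromal progenitors, also carry potassium channels, and auxiliary subunits change how the pores open and where they sit.

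Most members were near the limit of detection. Of the 94 genes, 14 had no count in any library, 64 stayed under 1 CPM in every library, 30 reached 1 CPM in at least 1 library, and 18 reached 5 CPM in at least 1 library. A count of 0 in a library allows up to 3 counts, for counting error only. The filter on low counts kept 34 members: 4 of 14 2-pore genes, 1 of 15 inward rectifiers, 16 of 40 voltage-gated genes, 6 of 8 calcium- or sodium-activated genes and 7 of 16 auxiliary genes. The other 60 members were not tested. Kcnk3, a leak channel studied in thermogenic fat cells, had 0 to 2 counts per library. Kcnma1, the large-conductance calcium-activated channel, had 0 to 17 counts, and Kcnj2, the classical inward rectifier, had 10 and 13 counts in SAT and 0, 0 and 1 in VAT; these 3 were picked after their values were seen.

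The members summed to similar levels in all libraries, but the genes behind the sum differed. The sums were 298 CPM in SAT library 1, 233 CPM in SAT library 2, 294 and 295 CPM in the VAT CD26-CD142+ libraries and 238 CPM in the VAT CD26+CD142+ library. Kcne4 led SAT library 1 with 34.1% of the member sum, Kcnk5 led SAT library 2 with 51.7%, and Kcnip3 led each VAT library with 20.3% to 24.8%. 2-pore genes made up 137 CPM of SAT library 2 and 63.9 CPM of the VAT CD26+CD142+ library, against 32.8 to 33.5 CPM in the other libraries. Kcnk5 alone gave 121 CPM in SAT library 2 and 38.9 CPM in the VAT CD26+CD142+ library, against 2.57 to 5.45 CPM in the others. Auxiliary genes gave 133 CPM in SAT library 1 and 13.7 CPM in SAT library 2, with 67.9 to 95.2 CPM in VAT. Kcne4 alone gave 102 CPM in SAT library 1, and Kcnip3 58.3 to 72.8 CPM in VAT. These family differences rest largely on single genes.

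**Figure D1:**
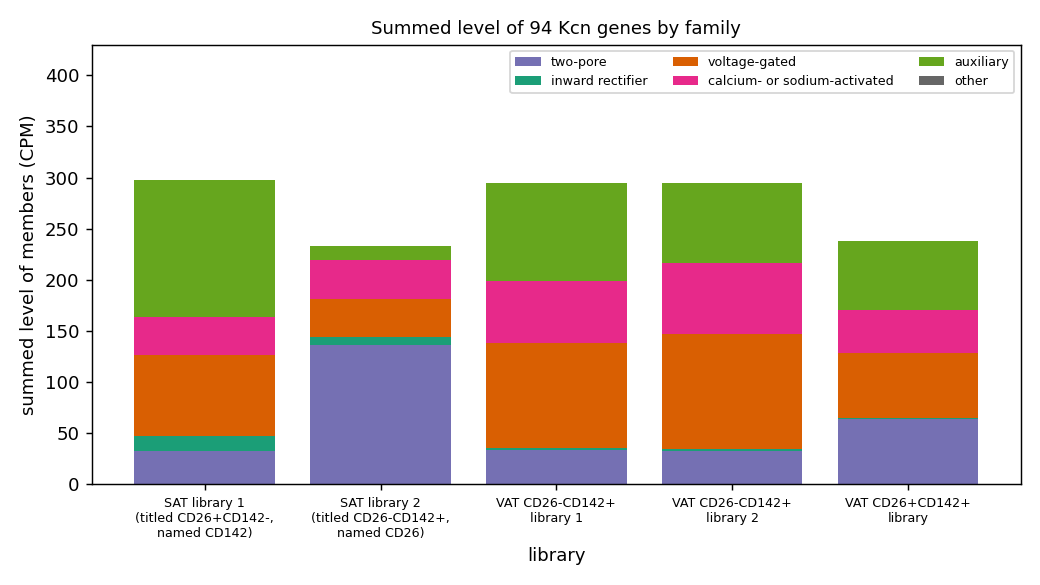
Summed level of the 94 Kcn genes (vertical axis, CPM) in each of the 5 libraries (horizontal axis), stacked by family; single libraries, so there are no error bars. 2-pore genes fill most of the bar in SAT library 2 (137 of 233 CPM), and auxiliary genes the largest share in SAT library 1 (133 of 298 CPM). Single genes gave most of these parts, with Kcnk5 at 121 CPM and Kcne4 at 102 CPM.

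Per gene length, the highest members were Kcnip3, Kcne4 and Kcnk5, and none of these was even across libraries. Their mean levels were 12.3, 10.5 and 10.1 RPKM, the CPM divided by gene length in kilobases, with ranges over the 5 libraries of 1.17 to 20.5, 0.512 to 38.2 and 0.754 to 35.4 RPKM. These ranges overlap, so the order among the 3 is not resolved.

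A set of 5 members was above 5 CPM in every library, and 4 of them are described here. Kcnk6, a 2-pore channel, was at 20.3, 15.2, 16.2, 13.7 and 11.01 CPM in SAT library 1, SAT library 2, the VAT CD26-CD142+ libraries 1 and 2 and the VAT CD26+CD142+ library, and Kcnd1, a rapidly inactivating voltage-gated channel, in the same order at 14.8, 12.4, 11.002, 8.94 and 9.56 CPM. Kcnk6 and Kcnd1 were the more even of the 4. Kcnn1, a small-conductance calcium-activated channel, was at 16.7, 8.39, 25.4, 21.9 and 11.7 CPM, and Kcnt2, a sodium-activated channel, at 17.6, 6.36, 17.3, 23.4 and 18.2 CPM. SAT library 2 was the lowest for Kcnn1 and Kcnt2. None of the 4 passed the test in any comparison below by the edgeR quasi-likelihood test with Benjamini-Hochberg adjustment, which does not show that their levels were equal.

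**Figure D2:**
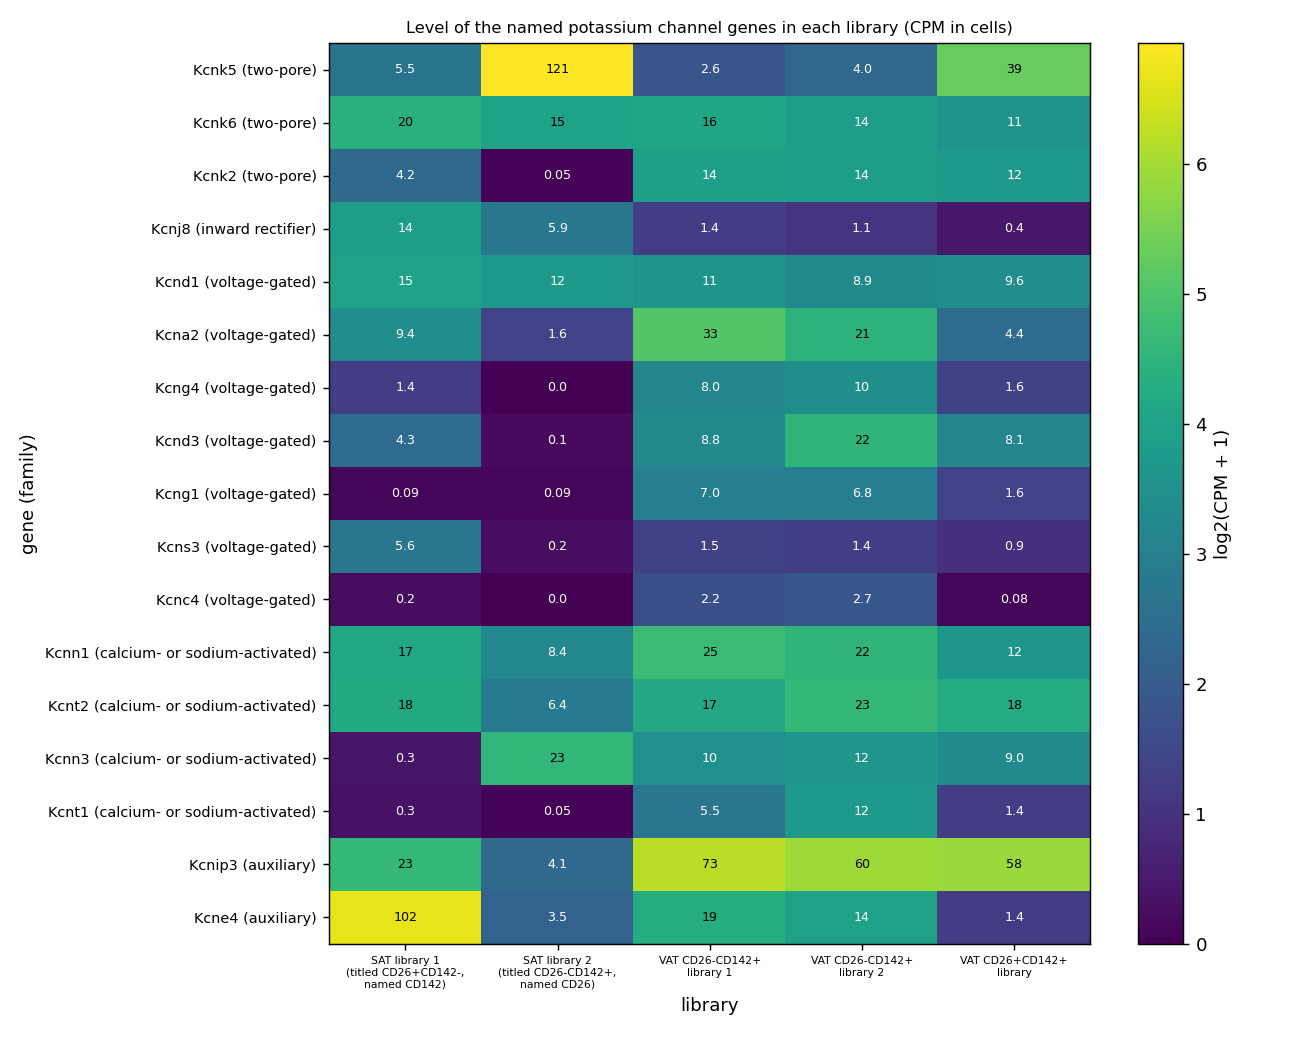
Level of 17 Kcn genes that reached 5 CPM in a library or passed a test (rows, grouped by family) in the 5 libraries (columns); colour is log2(CPM + 1) and the number in each cell is the CPM. Kcnk6, Kcnd1, Kcnn1 and Kcnt2 stay above 5 CPM across their rows, while Kcnk5 spans 2.57 to 121 CPM and Kcne4 1.36 to 102 CPM.

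The comparison of VAT CD26+CD142+ with VAT CD26-CD142+ cells asked how the members differ with CD26 inside 1 depot, and it does not touch the conflicting SAT labels. Here Kcnk5 was higher and Kcne4 and Kcna2 were lower in the CD26+CD142+ library: 3 of 34 members (8.82%) passed, against 1.6% of the 15920 genes tested. The background was 0.898% for higher and 0.697% for lower genes. The median log2 change was -0.17 over the 34 members and -0.03 over all genes tested.

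Kcnk5 encodes a 2-pore leak channel that opens in alkaline medium and takes part in cell volume regulation. Its level was 2.57 and 3.96 CPM in the VAT CD26-CD142+ libraries (mean 3.26 ± 0.982, SD, n = 2) and 38.9 CPM in the VAT CD26+CD142+ library. The CD26+CD142+ library lay far above both others. The log2 change was 3.57 (SE 0.49, edgeR quasi-likelihood test, adjusted p = 0.00148).

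Kcne4 encodes a single-pass auxiliary subunit that inhibits several voltage-gated channels. Its level was 18.7 and 14.5 CPM in the VAT CD26-CD142+ libraries (mean 16.6 ± 2.94, SD, n = 2) and 1.36 CPM in the VAT CD26+CD142+ library, below both. It fell by 3.60 on the log2 scale (SE 0.60, edgeR quasi-likelihood test, adjusted p = 0.00489).

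Kcna2 encodes a delayed rectifier of the Shaker family. Its level was 32.8 and 21.4 CPM in the VAT CD26-CD142+ libraries (mean 27.1 ± 8.10, SD, n = 2) and 4.37 CPM in the VAT CD26+CD142+ library. That library again lay below both, and Kcna2 fell by 2.63 on the log2 scale (SE 0.59, edgeR quasi-likelihood test, adjusted p = 0.0331).

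The next members by p were 4 low genes that did not pass. Kcnc4, a fast voltage-gated channel, was at 2.25 and 2.71 CPM in the CD26-CD142+ libraries and 0.0824 CPM (2 counts) in the CD26+CD142+ library. Kcng4 was at 7.98 and 10.0 against 1.57 CPM, Kcnt1 at 5.55 and 12.4 against 1.40 CPM, and Kcng1 at 7.01 and 6.75 against 1.65 CPM. In each of these 4 the CD26+CD142+ library was the lowest of the VAT libraries, with adjusted p = 0.166, 0.173, 0.189 and 0.393 (edgeR quasi-likelihood test). Kcnk2, Kcnip3, Kcnn3, Kcnt2 and Kcnd1 had log2 changes between -0.27 and -0.06 with adjusted p = 1.

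The spread in this test comes from the pair of CD26-CD142+ libraries, and the single CD26+CD142+ library was assumed to vary like them. Against only the CD26-CD142+ library whose name also ends in 2, the levels were 38.9 against 3.96 CPM for Kcnk5, 1.36 against 14.5 CPM for Kcne4 and 4.37 against 21.4 CPM for Kcna2. Markers of other cells moved with this gate, in both directions. The mesothelial markers Upk3b, Msln, Lrrn4 and Gpm6a together were at 1.19 and 12.8 CPM in the CD26-CD142+ libraries and 178 CPM in the CD26+CD142+ library, where Upk3b alone was at 96.2 CPM, and the 4 keratins at 1.28 and 3.31 against 45.6 CPM. Wt1, also on the mesothelial list, was at 113 and 154 against 112 CPM. Of the endothelial list, Tek was at 58.9 and 66.7 against 286 CPM and the other 7 markers together at 17.5 and 9.25 against 16.6 CPM. The mural list without Des went down, at 70.5 and 99.3 against 23.3 CPM. So did the mature adipocyte list, at 13.9 and 25.3 against 2.10 CPM. The splits of the mesothelial, endothelial and mural lists were made after the values were seen. The part of these markers in the Kcnk5, Kcne4 and Kcna2 differences, and in those of Abcc9 and Atp1b1 given next, was not tested.

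Of 40 other potassium handling genes (pump subunits, potassium-chloride cotransporters and their kinases, sulfonylurea receptors, cyclic nucleotide gated Hcn channels and trimeric intracellular channels), 28 were tested and 2 passed in this comparison. The background over all genes tested was 1.6%. Abcc9, the sulfonylurea receptor that forms the potassium channel gated by ATP with the inward rectifier Kcnj8, was at 7.24 and 8.51 CPM in the CD26-CD142+ libraries and 0.536 CPM in the CD26+CD142+ library. It fell by 3.86 on the log2 scale (SE 0.64, edgeR quasi-likelihood test, adjusted p = 0.00442). Kcnj8 itself was low in VAT, at 1.38, 1.08 and 0.371 CPM, with a log2 change of -1.71 that did not pass (adjusted p = 0.614, edgeR quasi-likelihood test). Atp1b1, a sodium pump beta subunit, was at 5.55 and 4.86 against 23.9 CPM and rose by 2.20 on the log2 scale (SE 0.51, adjusted p = 0.0388, edgeR quasi-likelihood test).

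Sequence upstream of Kcnk5, Kcne4, Kcnj8 and Abcc9 is shown because the first 2 are the members that passed the CD26 comparison both in VAT alone and over both depots by library name, and the others encode a pore and its receptor partner; they were picked after their values were seen. Sequences are from RefSeq promoter windows on GRCm38.p6, printed 5′ to 3′ on the strand of the gene and ending just before the annotated start. Capitals mark GC boxes, the letters GGGCGG searched on both strands. The printed intervals are chr14:20181810-20182032 (minus strand) for Kcnk5, chr1:78816661-78816757 (plus strand) for Kcne4, chr6:142571615-142571864 (minus strand) for Kcnj8 and chr6:142702316-142702524 (minus strand) for Abcc9.
Kcnk5: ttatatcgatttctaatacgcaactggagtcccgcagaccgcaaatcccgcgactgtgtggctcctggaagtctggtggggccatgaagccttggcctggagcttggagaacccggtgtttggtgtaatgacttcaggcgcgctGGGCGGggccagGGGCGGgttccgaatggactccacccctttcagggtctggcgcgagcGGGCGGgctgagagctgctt
Kcne4: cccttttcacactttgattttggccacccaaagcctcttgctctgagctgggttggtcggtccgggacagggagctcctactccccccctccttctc
Kcnj8: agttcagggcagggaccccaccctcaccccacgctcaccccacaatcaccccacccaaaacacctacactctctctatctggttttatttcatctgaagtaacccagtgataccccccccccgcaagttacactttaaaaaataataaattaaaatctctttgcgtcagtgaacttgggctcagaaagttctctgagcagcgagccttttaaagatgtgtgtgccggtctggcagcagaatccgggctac
Abcc9: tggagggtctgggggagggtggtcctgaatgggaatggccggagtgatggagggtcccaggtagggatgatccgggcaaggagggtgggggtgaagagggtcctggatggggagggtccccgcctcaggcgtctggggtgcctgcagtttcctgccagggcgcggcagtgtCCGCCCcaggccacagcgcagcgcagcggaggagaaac
The Kcnk5 stretch holds 3 GC boxes, the Abcc9 stretch 1, and those of Kcne4 and Kcnj8 hold none. A GC box was present in 35.7% of the 32851 windows of 300 bases in the same table. The Kcnk5 window of 300 bases has 26 CpG dinucleotides, the Abcc9 window 16, and those of Kcne4 and Kcnj8 9 each, against a median of 7 over all windows. Of all windows, 83.1% had fewer than Kcnk5, 67.0% fewer than Abcc9 and 54.2% fewer than Kcne4 or Kcnj8. The searched TATAAA and CCAAT letters, on both strands and present in 13.6% and 37.4% of all windows, were in none of the 4 windows. Kcnj8 and Abcc9 are neighbours on chromosome 6, with 16247 bases between them and the same strand. These are descriptions of the letters in those windows, and no binding was measured.

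The SAT libraries are 1 library each, so their difference has no replicate check and no test. Between SAT library 2, named for CD26, and SAT library 1, named for CD142, 13 of 94 members differed 2-fold or more, counting those with 2 CPM in the higher library and adding 1 CPM to both levels: 3 were higher and 10 lower in library 2. Among the 34 kept members, 3 were higher (background 8.82% of kept genes) and 9 lower (background 10.4%). Over all genes of the table, 2.61% were higher and 3.17% lower by the same rule.

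Kcnk5 was at 5.45 CPM in SAT library 1 and 121 CPM in SAT library 2, a 22.1-fold difference (95% interval 18.5 to 26.7, counting error only). Kcne4 went the other way, at 102 and 3.52 CPM, 28.9-fold lower in library 2 (95% interval 23.0 to 36.6). Kcna2 was at 9.43 and 1.62 CPM, 5.81-fold lower in library 2 (95% interval 4.07 to 8.51). In library names, these 3 genes lay on the same side of the CD26 gate as in VAT, and in titles on the opposite side.

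Kcnn3, a small-conductance calcium-activated channel, was at 0.303 CPM (7 counts) in SAT library 1 and 22.8 CPM in SAT library 2, 75.3-fold apart (95% interval 36.3 to 188). In VAT it was at 10.2 and 11.6 CPM in the CD26-CD142+ libraries and 8.99 CPM in the CD26+CD142+ library. The SAT libraries lay on either side of all VAT libraries, and the VAT gates differed little for this gene (adjusted p = 1, edgeR quasi-likelihood test). Whether the gate difference of Kcnn3 itself differed between depots was not tested, since the gates sorted in SAT and VAT are not the same.

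The stretch-sensitive 2-pore channel Kcnk2 was at 4.24 CPM in SAT library 1 and had 1 count (0.0451 CPM) in SAT library 2. Kcnd3, a rapidly inactivating channel, was at 4.33 and 0.135 CPM (3 counts), and Kcns3, a modifier subunit, at 5.58 and 0.180 CPM (4 counts). These 3 were all close to the limit of detection in SAT library 2. Kcnip3 was 5.64-fold lower in SAT library 2 (95% interval 4.52 to 7.07), Kcnt2 2.76-fold lower (2.28 to 3.37) and Kcnj8 2.34-fold lower (1.90 to 2.89). The remaining members apart by this rule were Kcnab2, higher in library 2, and Kcnip4 and Kcnh1, lower in it, none above 3.33 CPM; they are named only to complete the count. Some low members, picked after their values were seen, were highest in SAT library 1. Kcnk1 had 44 counts in it and 0 to 7 elsewhere, Kcnh1 58 counts and 1 to 5 elsewhere, and Kcnip4 77 counts and 5 to 24 elsewhere. SAT library 1 also had the highest sums of epithelial (65.1 CPM), mature adipocyte (75.9 CPM) and neuronal markers (35.2 CPM). Plin4 gave 59.2 CPM of the adipocyte sum and Rbfox3 29.8 CPM of the neuronal sum. Adipoq and Cidec were also highest there. Plin1, at 8.91 CPM, was below its 12.9 CPM in VAT CD26-CD142+ library 2, and Tubb3, at 5.19 CPM, below its 5.33 to 9.63 CPM in VAT. The part of these markers in the levels of these members was not tested.

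**Figure D3:**
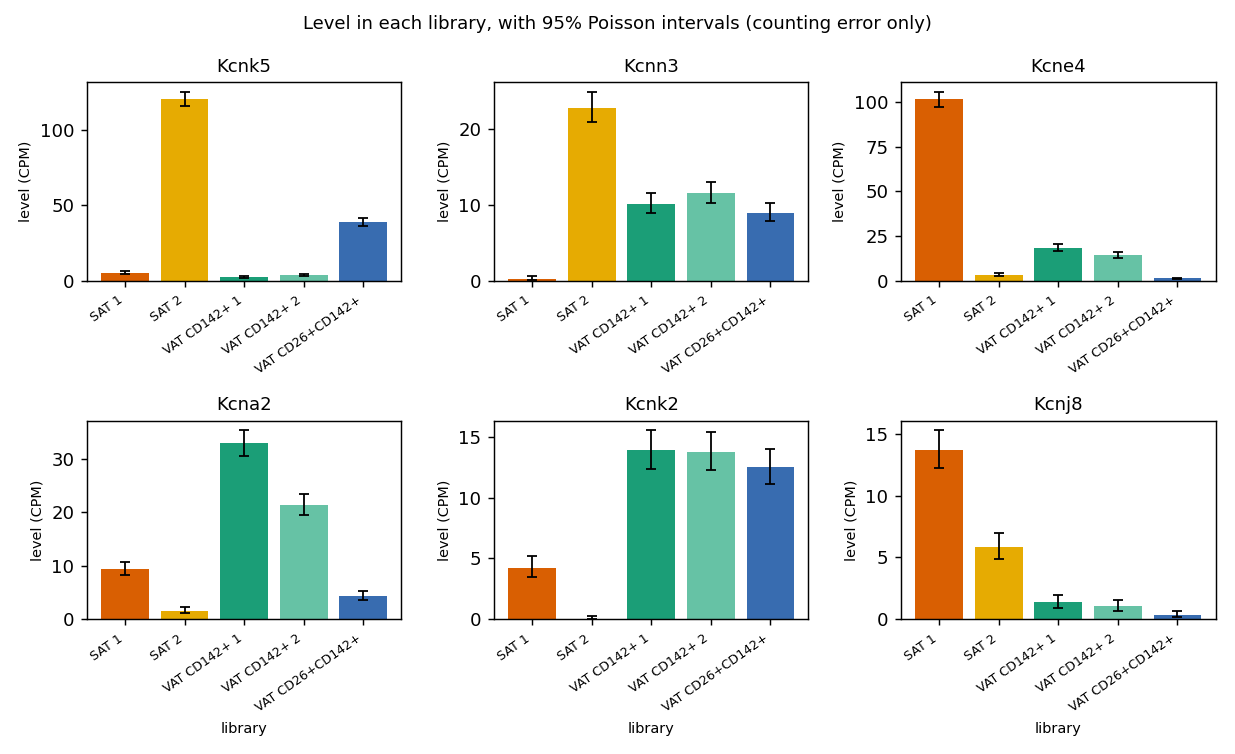
Level (vertical axes, CPM, from 0) of Kcnk5, Kcnn3, Kcne4, Kcna2, Kcnk2 and Kcnj8 in the 5 libraries; bars are single libraries and error bars 95% Poisson intervals for counting error. SAT 2 and VAT CD26+CD142+ are the highest bars for Kcnk5 and the lowest for Kcna2, and Kcnj8 is higher in both SAT libraries than in any VAT library.

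Set against VAT, with SAT gates by library name, 23 of 34 kept members (67.6%) had the same sign in both depots, against 73.7% of all kept genes. Of the 12 kept members apart in SAT, 10 (83.3%) had the same sign in VAT, against 88.9% of such genes. By library name both member shares were below the background, so agreement of sign is no result about the members. By title the signs in SAT turn, and those shares were not counted.

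**Figure D4:**
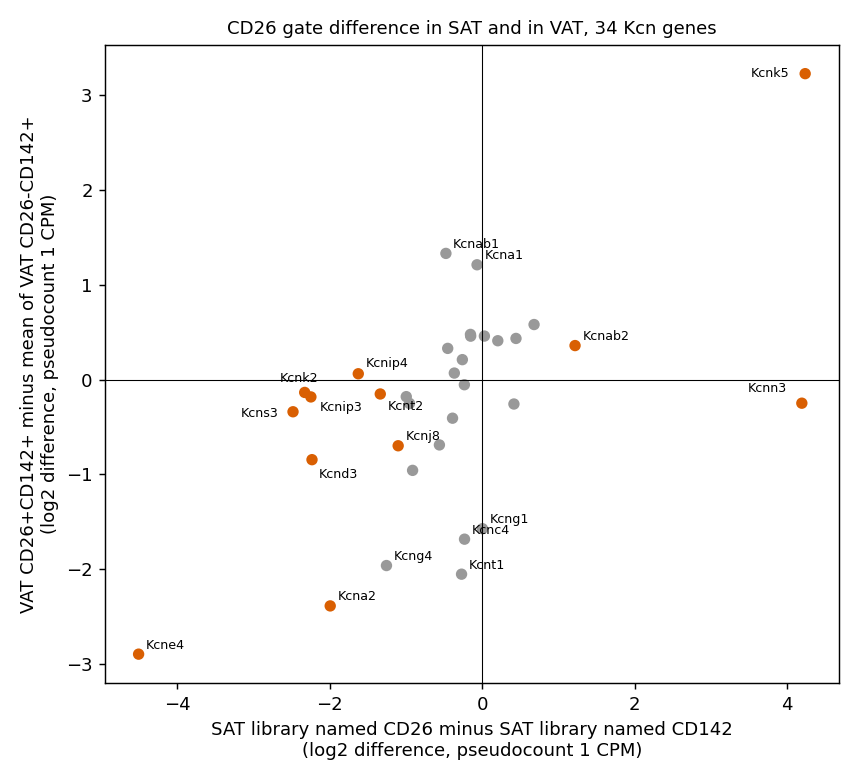
Each point is 1 of the 34 tested Kcn genes; the horizontal axis is the log2 difference between the SAT libraries named CD26 and CD142 and the vertical axis that between VAT CD26+CD142+ and the mean of VAT CD26-CD142+ (pseudocount of 1 CPM). Orange points are at least 2-fold apart in SAT with 2 CPM in the higher library: Kcnk5 sits far to the upper right, Kcne4 and Kcna2 to the lower left, and Kcnn3 far right near the VAT zero line.

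With both depots in 1 fit and depot as a term, the outcome turned on which SAT labels were used. By title, 0 of 34 members and 0% of genes passed by the edgeR quasi-likelihood test; at an unadjusted p under 0.05 there were 0 members and 140 genes, and DESeq2 and limma-voom also called 0 members. By library name, 2 of 34 members passed (5.88%, background 0.597%), 1 higher (background 0.32%) and 1 lower (background 0.276%). Kcnk5 was higher in the libraries named for CD26, with a log2 change of 3.97 (SE 0.35, adjusted p = 0.0381, edgeR quasi-likelihood test). Kcne4 fell by 4.18 on the log2 scale (SE 0.42, adjusted p = 0.0403, edgeR quasi-likelihood test). Kcna2, at -2.59, did not pass (adjusted p = 0.0523, edgeR quasi-likelihood test). By title the same genes had log2 changes of 1.58, 0.49 and -0.27, each smaller than its SE. The VAT libraries enter this fit as well, so it is no independent support for the VAT comparison. In SAT the gates also differ in CD142, with F3 at 618 and 5.32 CPM, while both VAT gates are CD142+. The fit pools these unlike contrasts, so its log2 change is not one of CD26 alone.

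The depots were first compared over all gates. Each depot pools unlike gates in this fit, so its spread includes gate differences as well as those between replicates. No member passed: 0 of 34, with 0.0503% of genes past the edgeR quasi-likelihood test (0.0377% higher and 0.0126% lower in SAT), 5 members and 1076 genes at an unadjusted p under 0.05, and 4 members by DESeq2 and 0 by limma-voom. The share of all genes past DESeq2 is not given here, so its 4 members have no background beside them. The median log2 change was -0.10 over the members and 0.01 over all genes.

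By order alone, 9 of 34 members (26.5%) lay lower in both SAT libraries than in all VAT libraries, against 10.2% of kept genes, and 4 (11.8%) lay higher, against 9.64%. The lower ones included Kcnip3, Kcnk2, Kcng4, Kcnd3, Kcng1, Kcnt1, Kcna1 and Kcnh3, and the 4 were Kcnd1, Kcnj8, Kcnab3 and Kcnc2; Kcna1, Kcnh3, Kcnab3 and Kcnc2 stayed under 5 CPM and were chosen for naming after their values were seen. This order is a description and not a test.

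Kcnip3 encodes a calcium-binding protein that attaches to rapidly inactivating voltage-gated channels and can also act as a transcriptional repressor. It was at 23.4 and 4.15 CPM in SAT (mean 13.8 ± 13.6, SD, n = 2) and at 72.8, 59.8 and 58.3 CPM in VAT (mean 63.65 ± 7.999, SD, n = 3). Both SDs run over libraries of unlike gates and are not a spread of replicates. The groups did not overlap, and the difference of -2.21 on the log2 scale did not pass (adjusted p = 0.598, edgeR quasi-likelihood test). Its channel partner Kcnd3 was at 4.33 and 0.135 CPM in SAT and 8.76, 22.0 and 8.12 CPM in VAT, whereas Kcnd1 was slightly higher in SAT.

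Kcng1, Kcng4 and Kcns3 encode silent subunits, which form no channel alone and modify other voltage-gated subunits. Kcng1 had 2 counts in each SAT library (0.0865 and 0.0902 CPM) and 7.01, 6.75 and 1.65 CPM in VAT. Kcng4 was at 1.38 and 0 CPM in SAT and 7.98, 10.0 and 1.57 CPM in VAT. Kcns3 differed from these in that SAT library 1 was the highest of the 5 libraries, at 5.58 CPM, with 1.51, 1.42 and 0.948 CPM in VAT.

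Kcnt1, a sodium-activated channel, had 6 and 1 counts in SAT (0.260 and 0.0451 CPM) and 5.55, 12.4 and 1.40 CPM in VAT. Its relative Kcnt2 overlapped between depots. Kcnj8 was the clearest member on the SAT side, at 13.7 and 5.86 CPM against 1.38, 1.08 and 0.371 CPM. Neither passed: the log2 differences were -5.34 for Kcnt1 (adjusted p = 0.451, edgeR quasi-likelihood test) and 3.38 for Kcnj8 (adjusted p = 0.342). The receptor partner Abcc9 was at 98.2 and 12.0 CPM in SAT and 7.24, 8.51 and 0.536 CPM in VAT, so it too was higher in both SAT libraries, without passing (adjusted p = 0.709, edgeR quasi-likelihood test). Kcnj8 and Abcc9 are known to be high in mural cells. Among mural markers, Des was at 3.20 and 14.4 CPM in SAT and 138, 120 and 96.5 CPM in VAT, while Cspg4 was at 4.33 and 2.62 CPM in SAT and 1.42, 2.49 and 2.14 CPM in VAT. Rgs5 was at 2.34 and 4.06 CPM in SAT and 2.06, 1.38 and 2.60 CPM in VAT. Myh11 was at 5.67 and 5.01 CPM in SAT and 37.9, 62.6 and 5.98 CPM in VAT. As a whole, the mural list summed to 43.3 and 40.3 CPM in SAT and 208, 219 and 120 CPM in VAT. Without Des, the sums overlapped between depots, at 40.1 and 25.9 CPM in SAT and 70.5, 99.3 and 23.3 CPM in VAT. The part of the mural list in the Kcnj8 and Abcc9 differences was not tested.

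The depots were then compared within the CD142+ gate, against the VAT CD26-CD142+ pair. By title the SAT side is library 2, and 10 of 34 members passed (29.4%, background 6.48%): 1 was higher in SAT (background 2.8%) and 9 were lower (background 3.68%). The median log2 change was -1.06 over the members and -0.03 over all genes. By library name the SAT side is library 1, and 5 of 34 passed (14.7%, background 2.36%): 2 higher (background 1.36%) and 3 lower (background 0.992%). The median was then -0.09 over the members and -0.04 over all genes. Both versions share the VAT pair, and each has a single SAT library. SAT library 2 had Dpp4 at 1007 CPM and F3 at 5.32 CPM. The VAT pair had Dpp4 at 5.13 and 6.58 CPM and F3 at 379 and 241 CPM. By these genes the version by title sets unlike gates against each other, so depot and gate cannot be told apart in it.

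By title, Kcnk5 was higher in SAT, at 121 CPM against 2.57 and 3.96 CPM (log2 change 5.20, SE 0.51, adjusted p = 1.42e-05, edgeR quasi-likelihood test). By name, with 5.45 CPM, its log2 change was 0.74 and did not pass (adjusted p = 0.846). Kcnk2 fell by 8.10 on the log2 scale by title (SE 1.01, adjusted p = 9.47e-05, edgeR quasi-likelihood test), from 13.9 and 13.8 CPM in VAT to the single count of SAT library 2. Kcnk2 shares 12.2% of its exon bases with the antisense gene A430027H14Rik, which had 0 to 7 counts per library. Kcng4 had 0 counts in SAT library 2 and was at least 66.7-fold lower there than in the VAT pair, against a floor of 3 counts in that library, and Kcnc4, also at 0, at least 18.4-fold lower. Both passed by title (adjusted p = 3.17e-04 and 0.0188, edgeR quasi-likelihood test). Kcnip3, Kcna2 and Kcnd3 also passed as lower by title, with log2 changes of -4.00, -4.06 and -6.77, and none of these 3, nor Kcnk2, Kcng4 or Kcnc4, passed by name.

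Kcng1 and Kcnt1 were lower in SAT than in the VAT pair under both readings of the labels. Kcng1 fell by 6.17 on the log2 scale by title (SE 1.13, adjusted p = 0.00231, edgeR quasi-likelihood test) and fell by 6.23 by name (SE 1.13, adjusted p = 0.00551). Kcnt1 fell by 7.47 by title (SE 1.25, adjusted p = 0.00116, edgeR quasi-likelihood test) and fell by 5.08 by name (SE 1.01, adjusted p = 0.0116). In limma-voom neither passed in either version. With SAT counts of 1 to 6, the sizes are imprecise: the ratio of Kcng1 in SAT library 2 to the VAT pair was 76.2-fold lower with a 95% counting interval of 20.9 to 632.

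Kcne4 changed direction with the labels. At 3.52 CPM in SAT library 2 it fell by 2.23 on the log2 scale against the VAT pair (SE 0.55, adjusted p = 0.0189, edgeR quasi-likelihood test), and at 102 CPM in SAT library 1 it rose by 2.61 (SE 0.46, adjusted p = 0.00427). Kcnn3 also turned, from a log2 change of 1.07 by title that did not pass (adjusted p = 0.351, edgeR quasi-likelihood test) to a fall of 5.14 by name (SE 0.76, adjusted p = 0.00115). Kcnj8 kept its direction, with a log2 change of 2.25 by title that did not pass (adjusted p = 0.0527, edgeR quasi-likelihood test) and a rise of 3.48 by name (SE 0.66, adjusted p = 0.00748).

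**Figure D5:**
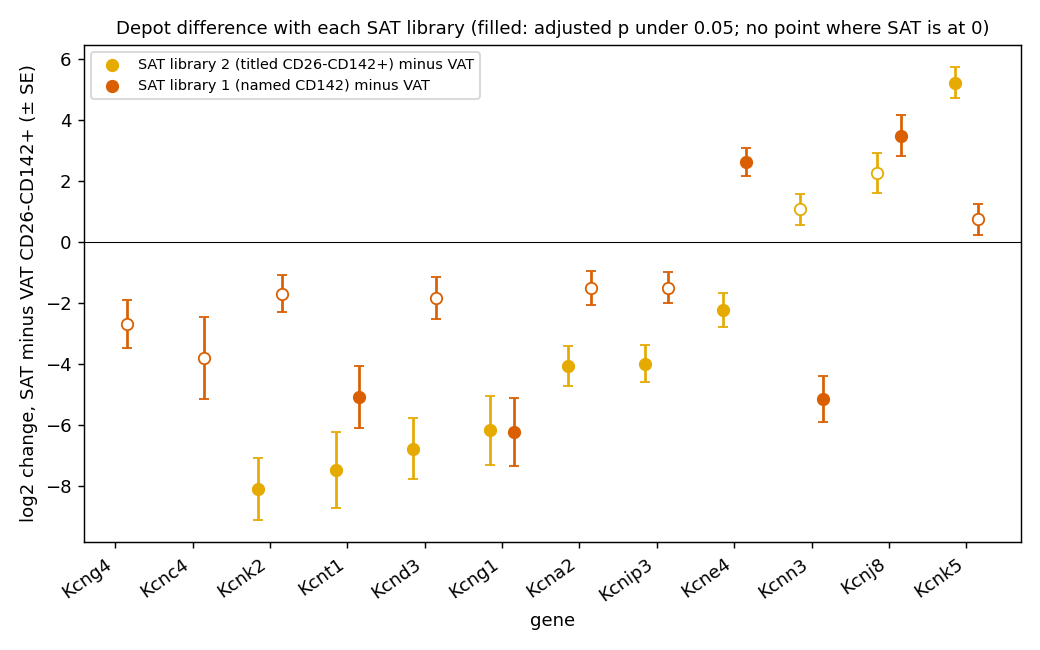
Log2 change of SAT against the VAT CD26-CD142+ pair (vertical axis, ± SE) for 12 Kcn genes that passed with either SAT library (horizontal axis); filled points passed and open points did not, and no point is drawn where the SAT library had 0 counts. Kcng1 and Kcnt1 are filled and below 0 with both libraries, and Kcne4 is filled on opposite sides of 0.

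Among the 28 tested genes of the potassium handling list, 5 passed by title in the CD142+ gate, 1 higher (Hcn4) and 4 lower, among them the sodium pump subunit Atp1b2, the pump regulator Fxyd5 and the kinase Wnk4. By name 4 passed, with Abcc9, the cotransporter Slc12a2 and the pump regulator Fxyd6 higher and Wnk4 lower. The background over all genes tested was 6.48% by title and 2.36% by name. Wnk4 was at 2.64 and 2.57 CPM in SAT and 25.2 and 39.9 CPM in the VAT pair, and it fell by 3.66 by title and fell by 3.62 by name on the log2 scale (adjusted p = 0.00130 and 0.00355, edgeR quasi-likelihood test). Abcc9 rose by 3.64 by name (SE 0.46, adjusted p = 3.72e-04, edgeR quasi-likelihood test). Over all gates, 0 of the 28 passed the edgeR quasi-likelihood test for depot.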

How the data were processed

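RNA was measured in 5 sorted libraries by poly(A) sequencing. Values are counts, not normalized, as the authors deposited them, with gene lengths in another unit, bases. Per the submitters' processing notes, the tools were CASAVA, HISAT2 2.0.5 and featureCounts 1.5.0-p3, on mm10. The annotation release and the strand setting are not given in the sources used here, so reads of overlapping antisense genes could not be told apart. All 94 members were in GENCODE M21, 90 with the same start and end.

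Members and gene lists were chosen with earlier results of these data known. filterByExpr (depot as group, minimum count 10) kept 15920 genes. Library sizes were scaled by TMM in edgeR 4.0.16 (R 4.3.3). CPM used these sizes, and RPKM divided CPM by the deposited gene length. The test was edgeR's robust quasi-likelihood test, with Benjamini-Hochberg adjustment at 0.05 over all kept genes, and p-values in the text come from it unless named otherwise. The SE is derived as the log2 change over √F and is not a fitted standard error. Residual degrees of freedom were 3 for depot, 2 for the CD26 gate with depot as a term and 1 for the fit of 4 groups. Named members reached 5 CPM in a library or passed a test. Depth, at 21706345 to 25357403 counts, makes 1 count 0.0412 to 0.0458 CPM. Intervals are exact Poisson or exact conditional ones, for counting error only. DESeq2 1.42.0, limma-voom (limma 3.58.1), other scalings and filters, and leaving out each library were tried. The scripts were tested on simulated data. Protein sequences were not used here, and upstream sequence is printed in their place. Some genes are not reported here, though they remain in sums and counts.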

Additional observations from a re-analysis of the deposited data

How the results depend on the processing

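In VAT, the 3 calls for the CD26 gate (Kcnk5, Kcne4, Kcna2) held in each of the 8 alternatives that gave a test, and leaving out either VAT CD26-CD142+ library left no residual degrees of freedom in the fit of 4 groups, so those are values without a test. For depot over all gates, the 0 members called became 1 with no filter, 4 with DESeq2, 1 with CD26 status by library name as a term and 0 to 1 on leaving out a library, with 1 only without SAT library 1. The library number as a replicate block gave 0 members for depot; the numbers are not stated to mark a shared batch. For the CD26 gate with depot as a term by title, the 0 members became 2 by library name. Leaving out a library can change what this term compares, so calls are not counted there. Without the VAT CD26+CD142+ library the term compares only the SAT libraries with each other. Without either SAT library it compares only the VAT gates. In the fit by title, Kcnk5 (1.58) turned to -0.72 in limma-voom and ran from -4.48 to 3.59 on leaving out a library. Kcne4 (0.49) turned to -4.18 by library name and ran from -3.59 to 4.84 on leaving out a library. These ranges therefore span unlike contrasts. By library name, the 2 members became 6 with no filter and 7 with DESeq2. Leaving out a library changes the contrast in the same way by name, so calls are not counted there either. These alternatives by name were chosen after seeing the data. For depot within the CD142+ gate by title, the 10 members became 6 in limma-voom and 5 by library name, where Kcne4 turned to 2.61 and Kcnn3 to -5.14. By library name, the 5 became 2 in limma-voom. The 13 members apart between the SAT libraries became 6 at 10 CPM in the higher library. Apart from the fits by library name, the share of all genes called is not given for these alternatives. Their member counts therefore have no background beside them and are no result about the members. Beyond the changes of contrast named above, the cause of these changes was not tested. Depth limits members with under 3 counts on a side, for which sizes are bounds or wide intervals.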
